A study of Mus musculus with 8 samples.

Results

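The ERBB receptor and ligand genes are 10 mouse genes fixed by name: the receptor genes Egfr, Erbb2, Erbb3 and Erbb4 and the ligand genes Areg, Ereg, Hbegf, Tgfa, Btc and Nrg1. They are 10 of the 21887 protein-coding genes on chromosomes 1 to 19, X and Y in the RefSeq annotation of GRCm38, the mm10 build, and all were found in it. The zinc finger protein ZFP281, a DNA-binding regulator of stem cell pluripotency, was mapped by chromatin immunoprecipitation sequencing in spheres from MMTV-HER2/Neu mice of the FvB strain. Primary tumour (PT) spheres came from tumours of animals older than 20 weeks, and early lesion (EL) spheres from animals of 14 to 18 weeks with no palpable tumour, both after 7 days without attachment in mammosphere medium. Each group had 3 ZFP281 libraries, which the labels call biological replicates, and 1 input that was not analysed here. All animals of both groups carry the HER2/Neu oncogene, which the promoter of the mouse mammary tumour virus expresses in mammary epithelium, so no group lacks it. The tissue label reads breast tumor for PT and mammary lung for EL, and every sample carries the cell type label breast cancer cells. The labels do not say which animals were pooled or which cells each culture held, so a summit may come from any cell type in the spheres.

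ERBB receptors are tyrosine kinases of the cell surface that signal as pairs. EGFR and ERBB4 bind ligands and signal, ERBB2 (HER2, or Neu) binds no known ligand and acts as the favoured partner, and ERBB3 binds neuregulin but has little kinase activity of its own and relays the signal of its partner to PI3 kinase. The ERBB2 and ERBB3 pair drives growth in HER2-positive mammary tumours. Amphiregulin (Areg) and TGF-alpha (Tgfa) act on EGFR, while HB-EGF (Hbegf), betacellulin (Btc) and epiregulin (Ereg) act on EGFR and ERBB4, and neuregulin 1 (Nrg1) on ERBB3 and ERBB4.

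ZFP281 is known to bind G-rich DNA, so the promoters that bear on the results were searched for GGGAGGG on both strands. The RefSeq promoter table (GRCm38.p6, 250 bases before to 50 after a transcription start) matched 6 of the 10 genes, namely Egfr, Erbb2, Erbb4, Areg, Tgfa and Btc. The promoters of Egfr, Erbb2 and Tgfa are shown because at least 1 library had a summit shortly downstream of their start, and that of Erbb4 because no library had a summit in or near this gene. Capitals mark GGGAGGG or its complement, and each sequence runs 5′ to 3′ on the strand of the gene.
Egfr (chr11:16751953-16752252, plus strand): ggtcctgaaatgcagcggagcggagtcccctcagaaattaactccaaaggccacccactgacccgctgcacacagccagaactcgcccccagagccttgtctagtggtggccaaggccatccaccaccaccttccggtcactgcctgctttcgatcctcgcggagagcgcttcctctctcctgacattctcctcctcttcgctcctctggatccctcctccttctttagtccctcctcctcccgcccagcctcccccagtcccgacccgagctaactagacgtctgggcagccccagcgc
Erbb2 (chr11:98412234-98412533, plus strand): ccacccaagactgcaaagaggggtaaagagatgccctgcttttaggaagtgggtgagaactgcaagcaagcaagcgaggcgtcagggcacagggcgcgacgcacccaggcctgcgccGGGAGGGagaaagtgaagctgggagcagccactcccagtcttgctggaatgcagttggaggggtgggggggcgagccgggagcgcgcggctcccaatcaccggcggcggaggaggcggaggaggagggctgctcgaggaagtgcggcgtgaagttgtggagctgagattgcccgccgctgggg
Tgfa (chr6:86194972-86195271, plus strand): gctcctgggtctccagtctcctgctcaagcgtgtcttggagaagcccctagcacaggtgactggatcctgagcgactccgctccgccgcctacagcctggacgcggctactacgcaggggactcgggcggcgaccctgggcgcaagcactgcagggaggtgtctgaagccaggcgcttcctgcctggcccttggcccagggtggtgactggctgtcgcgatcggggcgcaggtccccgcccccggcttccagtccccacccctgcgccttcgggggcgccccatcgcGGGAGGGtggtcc
Erbb4 (chr1:69108010-69108309, minus strand): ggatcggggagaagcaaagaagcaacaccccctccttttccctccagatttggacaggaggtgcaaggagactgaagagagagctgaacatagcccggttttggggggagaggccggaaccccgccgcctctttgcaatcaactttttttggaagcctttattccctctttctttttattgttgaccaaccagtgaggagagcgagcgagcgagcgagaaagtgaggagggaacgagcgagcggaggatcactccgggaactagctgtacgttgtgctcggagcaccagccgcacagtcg

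The promoters of Erbb2 and Tgfa held 1 match each, and those of Egfr, Erbb4, Areg and Btc held 0. Among all 32851 promoters of the same length in the table, 22.0% held GGGAGGG on either strand. The share was 74.9% in the 303 promoters with a ZFP281 summit inside their 300 bases in all 6 libraries, and 19.4% in the 30320 promoters with none. The longer form GGGGAGGGG, which contains GGGAGGG, was in 0 of the 6 ERBB promoters, in 6.37% of all promoters and in 62.0% of the promoters with a summit in all 6 libraries. No summit of any library lay inside the 300 bases of the 6 ERBB promoters. The promoters of Erbb3, Ereg, Hbegf and Nrg1 were not in the table, so summits inside them could not be looked for. Hbegf had summits within 81 bp of its upper end in both groups, and the annotation used here gave no strand to tell which end is the start. The nearest summits lay downstream of the start: at 1325, 1334 and 1426 bp for Egfr in EL replicates 1, 2 and 3, at 683 bp for Erbb2 in EL replicate 2, and at 931 bp for Tgfa in EL replicate 2. A match of letters is a description and does not show a binding site.

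The deposited lists give single-base summit positions, each with a score that, from its values and not from a label, was taken to be the −log10 of a q-value. The lists held 2897, 4030 and 6033 summits in PT replicates 1, 2 and 3 and 8588, 15770 and 7055 in EL replicates 1, 2 and 3. Sequencing depth is unknown, so a gene with more EL summits may only be a gene in a longer list. Each comparison was therefore made on the full lists and again on the 2897 top-scoring summits of each library, as many as the shortest list, PT replicate 1, holds, so that this list enters whole. A summit was assigned to a gene when it lay inside the gene or within 20 kb of either end. A window of 20 kb can hold other genes, and these are named where a summit lay in them.

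ZFP281 summits at the ERBB genes were more numerous in EL in the full lists and more numerous in PT in lists of equal length. In the full lists the 10 windows held 3, 4 and 5 summits in PT replicates 1, 2 and 3, against 6, 14 and 7 in EL replicates 1, 2 and 3. The means were 4.0 ± 1.0 in PT and 9.0 ± 4.36 in EL (SD, n = 3 each), a difference of -5.0, PT minus EL, with no overlap between the groups (exact permutation test, two-sided, p = 0.1). The smallest p that 3 against 3 libraries allow is 0.1, so no test of this kind could pass 0.05. Without EL replicate 2, the longest list, the difference was -2.50. In lists of equal length the windows held 3, 3 and 2 summits in PT and 1, 0 and 0 in EL. The groups were again apart, in the other direction, with means of 2.67 ± 0.577 in PT and 0.333 ± 0.577 in EL (SD, n = 3 each, exact permutation p = 0.1, two-sided). Lists of equal length do not share a lowest score, which was 1.42 in PT replicate 1 and 23.3 in EL replicate 2. With the same lowest score in every library the difference in summits kept its sign but was smaller than in the full lists. It was -3.33 for scores of at least 5 (exact permutation p = 0.4, two-sided) and -0.667, less than 1 summit, for scores of at least 10. Genes with a summit differed by -0.667 and 0.667 at these scores, so their direction was not kept.

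**Figure D1:**
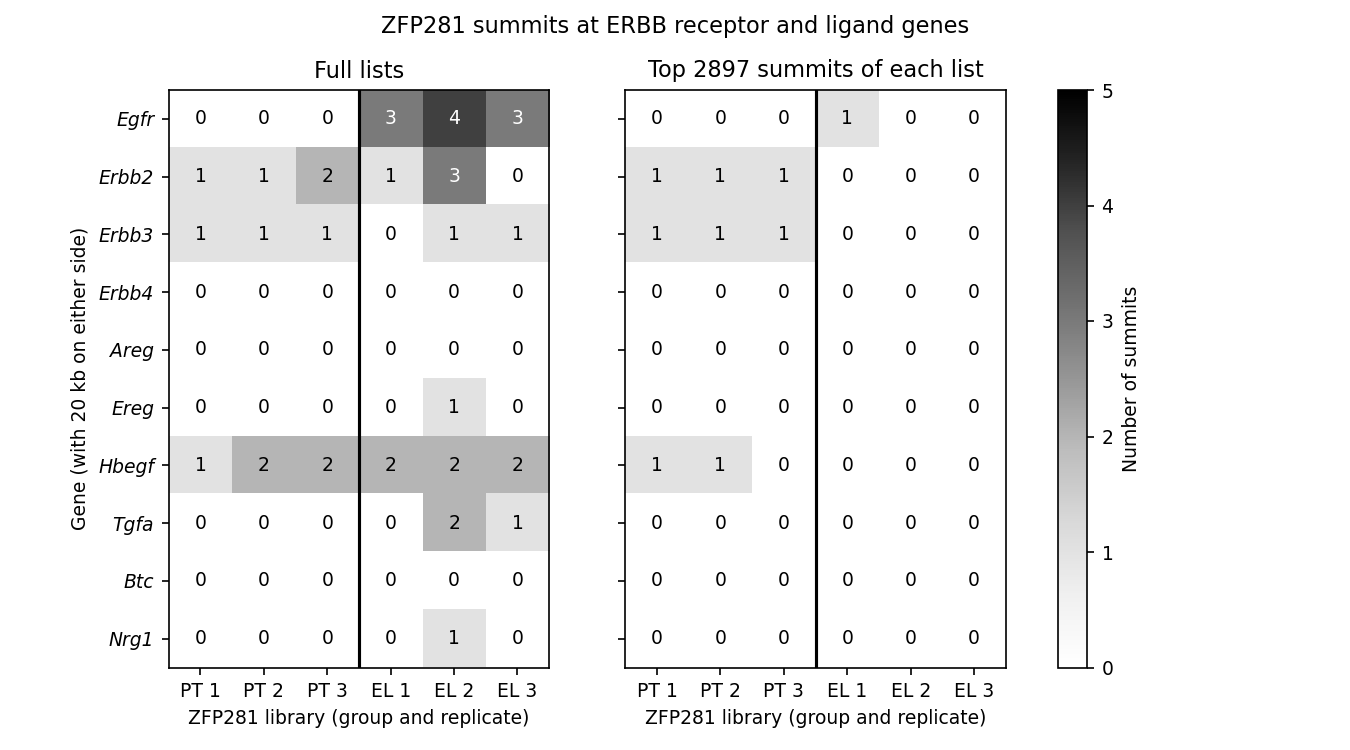
Number of ZFP281 summits in each ERBB gene with 20 kb on either side (rows) by library (columns, PT left of EL), in the full lists (left) and in the 2897 top-scoring summits of each list (right). Egfr held 3, 4 and 3 EL summits and no PT summit in the full lists, and Erbb2 and Erbb3 held 1 summit in each PT library and none in EL in the lists of equal length.

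As a part of each full list the ERBB windows differed little between the groups. They took 0.104%, 0.0993% and 0.0829% of the summits of PT replicates 1, 2 and 3, and 0.0699%, 0.0888% and 0.0992% of those of EL replicates 1, 2 and 3. The 95% Wilson intervals of the 6 libraries ran from between 0.0320% and 0.0529% to between 0.149% and 0.304% and cover counting error only. The difference of 0.00928 percentage points, PT minus EL, was smaller than the spread between replicates (0.0109 in PT and 0.0149 in EL, SD, n = 3 each; exact permutation p = 0.5, two-sided). The windows together spanned 2.94 Mb and held 1.02 to 1.70 summits per Mb in PT and 2.04 to 4.77 in EL. The windows of all protein-coding genes held 1.80 to 3.71 summits per Mb in PT and 4.28 to 9.27 in EL, more than the ERBB windows in each of the 6 libraries. Erbb4 and Nrg1, whose windows of 1117 and 1124 kb make up most of the span, held 0 and 1 of the 39 summits.

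Of the 10 genes, 3 had a summit in every PT library, namely Erbb2, Erbb3 and Hbegf, and 3, 7 and 4 had one in EL replicates 1, 2 and 3. Among all protein-coding genes the shares were 16.7%, 21.6% and 29.0% in PT replicates 1, 2 and 3 and 34.7%, 48.4% and 30.7% in EL replicates 1, 2 and 3. The mean number of genes was 3.0 ± 0 in PT and 4.67 ± 2.08 in EL (SD, n = 3 each; difference -1.67, PT minus EL, exact permutation p = 0.4, two-sided). At equal list length, 3, 3 and 2 of the 10 genes had a summit in PT and 1, 0 and 0 in EL, against 16.7% to 16.9% of all genes in PT and 16.9% to 17.6% in EL. Of the 10 genes 3 (Erbb4, Areg and Btc) had no summit in any full list, as did 48.6% of all protein-coding genes. With Ereg, Tgfa and Nrg1, 6 of the 10 had none in the lists of equal length, against 72.1% of all genes.

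**Figure D2:**
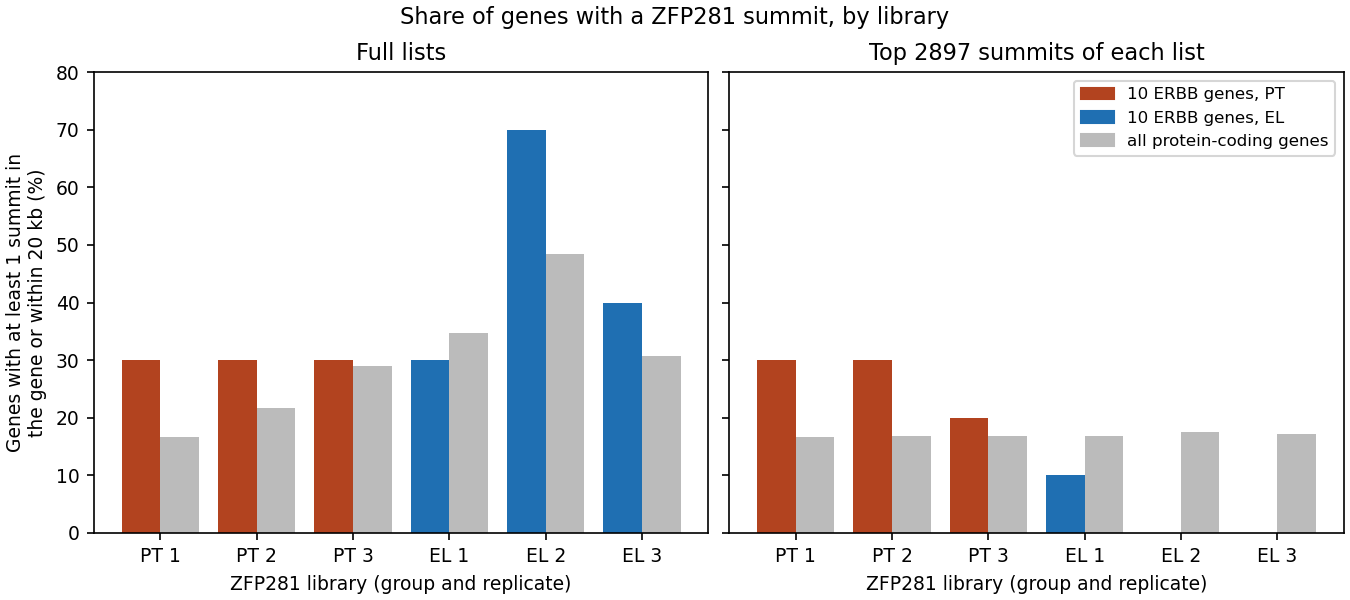
Percent of genes with at least 1 ZFP281 summit in the gene or within 20 kb, for the 10 ERBB genes (coloured bars) and all protein-coding genes (grey bars), by library, in full lists (left) and lists of equal length (right). In lists of equal length the grey bars are level, at 16.7% to 17.6%, while the coloured bars stand for 3, 3 and 2 genes in PT and 1, 0 and 0 genes in EL.

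Among the receptor genes, Erbb3 carried the highest-ranked summits of all 10 genes, and it did so in PT. The PT summits lay inside the gene at positions 128584541, 128584622 and 128584650 of chromosome 10 in PT replicates 1, 2 and 3, within 110 bp of each other and 4985 to 5094 bp below the upper end of the gene. Their scores were 20.8, 28.2 and 34.7, which placed them at ranks 543, 381 and 542 of their lists, or percentiles 81.1, 90.6 and 91.0. No EL library had a summit in this region. The EL summits at Erbb3 lay elsewhere, 957 and 1012 bp beyond the upper end of the gene in EL replicates 2 and 3, with scores of 5.08 and 4.74 and percentiles of 19.3 and 15.8, and EL replicate 1 had none. The gene spans 128567523 to 128589635, and the window also reaches Zc3h10, Rpl41 and Pa2g4, but Erbb3 was the nearest protein-coding gene of all 5 summits.

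Regions were made by merging summits closer than or equal to 200 bp across the libraries, and the Erbb3 site fell in a small class of them. Of all 19317 regions, 0.704% were found in all 3 PT and no EL library, and 2 of the 16 regions in the ERBB windows were, the one inside Erbb3 and one near Hbegf that is described later. By number of summits Erbb3 did not stand apart, with 1, 1 and 1 in PT and 0, 1 and 1 in EL (difference 0.333, PT minus EL, exact permutation p = 1, two-sided). In the lists of equal length it had 1 summit in each PT library and 0 in each EL library. The region inside Erbb3 was in all 3 PT and no EL library there as well, a class of 6.23% of the 6114 regions of those lists.

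Erbb2, the mouse gene of the receptor that the transgene also encodes, carried 1 main region that was found in both groups. It lies inside the gene on chromosome 11 from 98419015 to 98419127, 6531 to 6643 bp above the lower end, where the gene starts at 98412484 and ends at 98437716. PT replicates 1, 2 and 3 had summits there with scores of 11.5, 18.7 and 20.0, at percentiles 59.0, 80.3 and 80.2 of their lists. EL replicates 1 and 2 had scores of 10.4 and 8.0, at percentiles 58.5 and 44.4, and EL replicate 3 had no summit. PT replicate 1 and EL replicate 1 thus had nearly the same percentile. The PT summits were at ranks 1188, 796 and 1191 and so among the 2897 strongest of their lists, and the EL summits, at ranks 3502 and 8636 of longer lists, were not. Summits are placed on the mouse genome, and reads of the transgene were not analysed here.

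Other summits in the Erbb2 window were found in fewer libraries. EL replicate 2 had one 683 bp above the lower end of the gene, at percentile 72.9. A further region inside Mien1 and Grb7, at 98447480 to 98447488 and 9764 to 9772 bp beyond the upper end of Erbb2, was found in PT replicate 3 and EL replicate 2 at percentiles 22.3 and 35.8. Grb7 encodes an adaptor that binds ERBB receptors. In full lists the Erbb2 window held 1, 1 and 2 summits in PT and 1, 3 and 0 in EL, with means of 1.33 ± 0.577 in PT and 1.33 ± 1.53 in EL (SD, n = 3 each), so the difference was 0 (exact permutation p = 1, two-sided).

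With lists of equal length, Erbb2 and Erbb3 were the genes with more summits in every PT library than in any EL library, 2 of the 10 genes. The share of all protein-coding genes with this pattern was 1.83%, and 2.12% had the reverse, which 0 of the 10 genes showed. In full lists the pattern of higher PT numbers was found in 0 of the 10 genes and 0.274% of all genes. The same 2 genes had a summit in each PT library of equal length and none in EL, against 1.42% of all genes.

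Egfr showed the opposite picture in the full lists. It held 0, 0 and 0 summits in PT and 3, 4 and 3 in EL replicates 1, 2 and 3, a difference of -3.33, PT minus EL (two-sided exact permutation p = 0.1; after Benjamini-Hochberg adjustment over all 21887 genes, p = 1). It was 1 of 10 ERBB genes with more summits in every EL than in any PT library, a pattern of 9.26% of all protein-coding genes. Egfr was also 1 of 10 in having a summit in each EL library and none in PT, as did 5.19% of all genes.

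The EL summits at Egfr formed 3 regions, each in all 3 EL libraries and no PT library, and 1 single summit. The gene spans 16752203 to 16913907 on chromosome 11, and no other protein-coding gene lies in its window. The first region, at 16753528 to 16753629 close to the start of the gene, had scores of 6.78, 10.5 and 5.41 in EL replicates 1, 2 and 3. The second, at 16843995 to 16844084, had scores of 8.38, 10.1 and 4.35, and the third, at 16865067 to 16865152, had 13.6, 18.6 and 3.96. The third region held the strongest Egfr summits of EL replicates 1 and 2, at percentiles 68.9 and 76.3, and the weakest of EL replicate 3, at 9.36. EL replicate 2 alone had a further site at 16800724, at percentile 60.2.

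Of the 10 Egfr summits, that of EL replicate 1 in the third region, at rank 2662, remained in the lists of equal length. The next by rank, that of EL replicate 2 in the same region, was at rank 3701 with a score of 18.6, where the 2897 strongest summits of that list end at 23.3. Egfr then had 0 summits in each PT library and 1, 0 and 0 in EL replicates 1, 2 and 3. Fibroblast marker windows (Col1a1, Col1a2, Pdgfra, Dcn and Col6a2) moved in the same direction. Of these, 5 of 5 had more summits in every EL than in any PT library, against 9.26% of all protein-coding genes. Their sum was 0 to 3 summits per PT library and 17 to 20 per EL library, and Col1a2, Col6a2 and Dcn were at 0 in every PT library. At equal list length 2 of 5 had more summits in every EL than in any PT library, against 2.12% of all genes, with sums of 0 in each PT library and 3 to 9 in EL. Lung epithelium markers (Sftpc, Sftpb, Nkx2-1 and Scgb1a1) had a sum of 0 to 1 summits per PT library and 3 to 7 per EL library, and 0 against 1 to 2 in lists of equal length. Of these 4, Sftpc had 0, 0 and 1 summits in PT and 4, 5 and 3 in EL, Scgb1a1 had EL summits only, and Sftpb and Nkx2-1 were at 0 in every library. Endothelium markers (Pecam1, Cdh5 and Kdr) had sums of 0 to 2 summits per PT library and 2 to 5 per EL library. At equal list length the endothelium sums were 0 to 2 in PT and 2 in each EL library. Sums for mammary epithelium and leukocyte markers are given below. A summit shows binding near a gene and not its expression, and the part of other cell types in the Egfr summits was not tested.

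Erbb4, the receptor linked to differentiation and milk production in the mammary gland, had no summit in any library within its 1077 kb or 20 kb of either end (chromosome 1, 68031884 to 69108576). Among the receptor genes, summits of the full lists were thus found in all 3 PT libraries at Erbb2 and Erbb3, in all 3 EL libraries at Egfr, and in none at Erbb4.

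**Figure D3:**
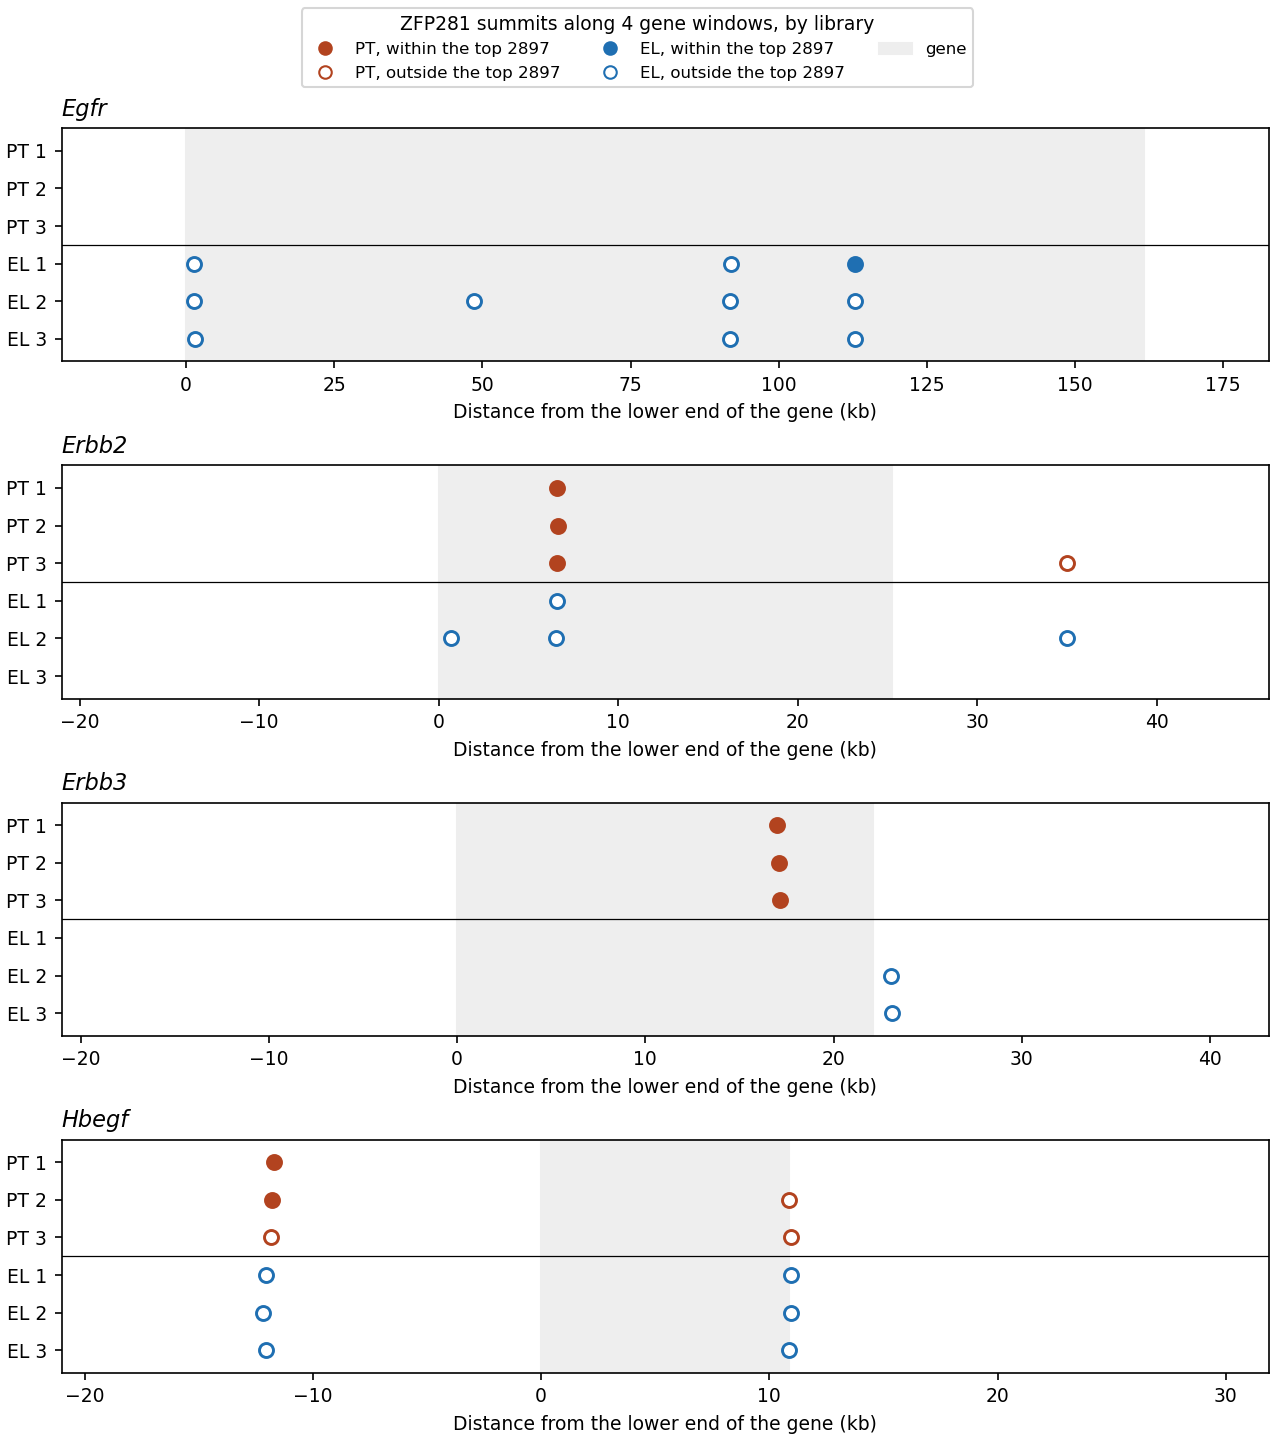
Positions of ZFP281 summits along the windows of Egfr, Erbb2, Erbb3 and Hbegf, in kb from the lower end of the gene (grey band), with 1 row per library and the PT rows above the EL rows. Filled points are among the 2897 top-scoring summits of their list, and all Erbb3 and Erbb2 points of that kind are PT summits.

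Among the ligand genes, Hbegf was the gene with a summit in all 6 libraries, as 13.0% of all protein-coding genes had. HB-EGF is made as a membrane protein and released by shedding. The window of the gene (chromosome 18, 36504927 to 36515805) held 1, 2 and 2 summits in PT and 2, 2 and 2 in EL, a difference of -0.333, PT minus EL (exact permutation p = 1, two-sided). One site lay at the upper end of the gene, from 36515804 to 36515886, between 1 bp inside and 81 bp beyond it. PT replicates 2 and 3 had scores of 3.45 and 5.99 there and PT replicate 1 had no summit, against scores of 7.14, 11.4 and 6.43 in EL replicates 1, 2 and 3. None of these was among the 2897 strongest of its list.

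The second Hbegf site lay between genes, 11710 to 12178 bp below the lower end of Hbegf, and its summits did not sit at the same place in the groups. The summits were at 36493217, 36493158 and 36493106 in PT replicates 1, 2 and 3 and at 36492881, 36492749 and 36492886 in EL replicates 1, 2 and 3. Every PT summit lay at a higher coordinate than every EL summit, with a gap of 220 bp between the groups. The mean position differed by 322 bp, PT minus EL (SD 55.5 bp in PT and 77.7 bp in EL, n = 3 each, exact permutation p = 0.1, two-sided). The gap exceeds 200 bp, so merging at 200 bp gave an EL-only and a PT-only region side by side, and merging at 500 bp gave a single region of all 6 libraries, 1 of 15 regions in the windows and a class of 9.17% of all regions. The scores were 5.70, 10.5 and 6.72 in PT replicates 1, 2 and 3 and 4.67, 11.6 and 4.80 in EL replicates 1, 2 and 3, which overlap.

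This offset was set against other regions after its values were seen. Of 1642 regions merged at 500 bp with exactly 1 summit in each of the 6 libraries, 10.9% had groups that did not overlap in position, and 5.97% had the PT summits at higher coordinates. The median absolute difference of the mean positions was 23.7 bp. A difference at least as large as at Hbegf was found in 8 of the 1642 regions, Hbegf included, or 0.487%. The 1642 regions were not matched to the Hbegf site by score, so this share does not hold for regions of like strength. The Hbegf summits were at percentiles 17.3, 56.1 and 36.6 in PT replicates 1, 2 and 3 and 16.3, 60.5 and 16.7 in EL replicates 1, 2 and 3. In PT replicate 2 the distal site was among the 2897 strongest summits, at rank 1769, while in PT replicate 3, at rank 3827, and in the 3 EL libraries it was not. PT replicate 1 holds only 2897 summits, so its summit, at percentile 17.3, is in the list of equal length by construction.

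**Figure D4:**
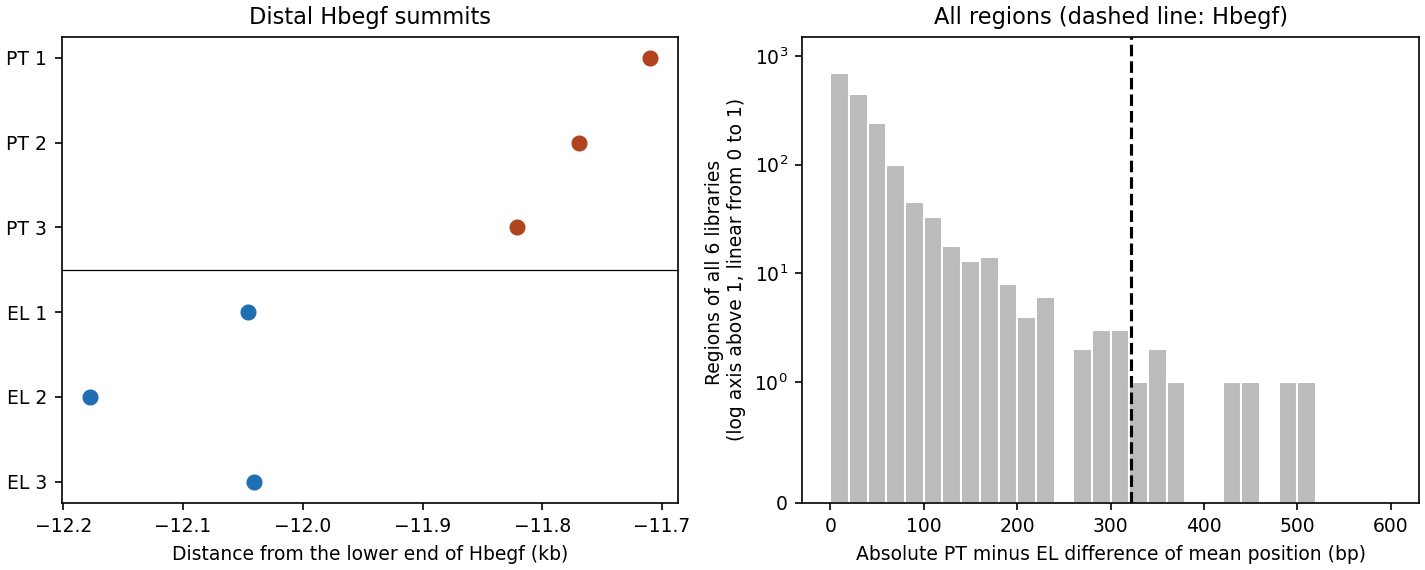
Left, positions of the distal Hbegf summits in kb from the lower end of the gene, with 1 row per library and PT above EL. Right, absolute difference between the mean PT and mean EL position in 1642 regions found in all 6 libraries, where the dashed line marks the 322 bp of the Hbegf site and the median is 23.7 bp.

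Tgfa, Ereg and Nrg1 had EL summits alone within their 20 kb windows in the full lists, and most came from EL replicate 2, the longest list. This depends on the window. The nearest summits of PT replicates 2 and 3 lay at -26042 and -25991 bp from the Tgfa start (minus for upstream), outside its window. With a 50 kb window the difference, PT minus EL, was -0.333 at Tgfa, 0 at Ereg and -0.333 at Nrg1. Tgfa held 0, 0 and 0 summits in PT and 0, 2 and 1 in EL replicates 1, 2 and 3 (difference -1.0, PT minus EL, exact permutation p = 0.4, two-sided). A site inside Tgfa, at 86219589 to 86219624 on chromosome 6, was shared by EL replicates 2 and 3 with scores of 9.93 and 8.62, and EL replicate 2 had a further summit at 86196153 with a score of 6.17. Ereg had 1 summit, in EL replicate 2, at 91083309 on chromosome 5 with a score of 2.88. Nrg1, the neuregulin gene whose product binds ERBB3, had 1 summit in its 1084 kb, again in EL replicate 2, at 31919496 on chromosome 8 with a score of 3.65. These last summits were at percentiles 4.12 and 9.30 of the list, and none at Tgfa, Ereg or Nrg1 was among the 2897 strongest.

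Areg, an EGFR ligand of ductal growth in the mammary gland, and Btc had no summit in any library. Areg, Ereg and Btc lie on the same stretch of chromosome 5, from 91074617 to 91402994, and their windows do not overlap. The ligand genes therefore held summits in all 3 PT libraries at 1 of 6 genes (Hbegf) and in all 3 EL libraries at the same gene.

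**Figure D5:**
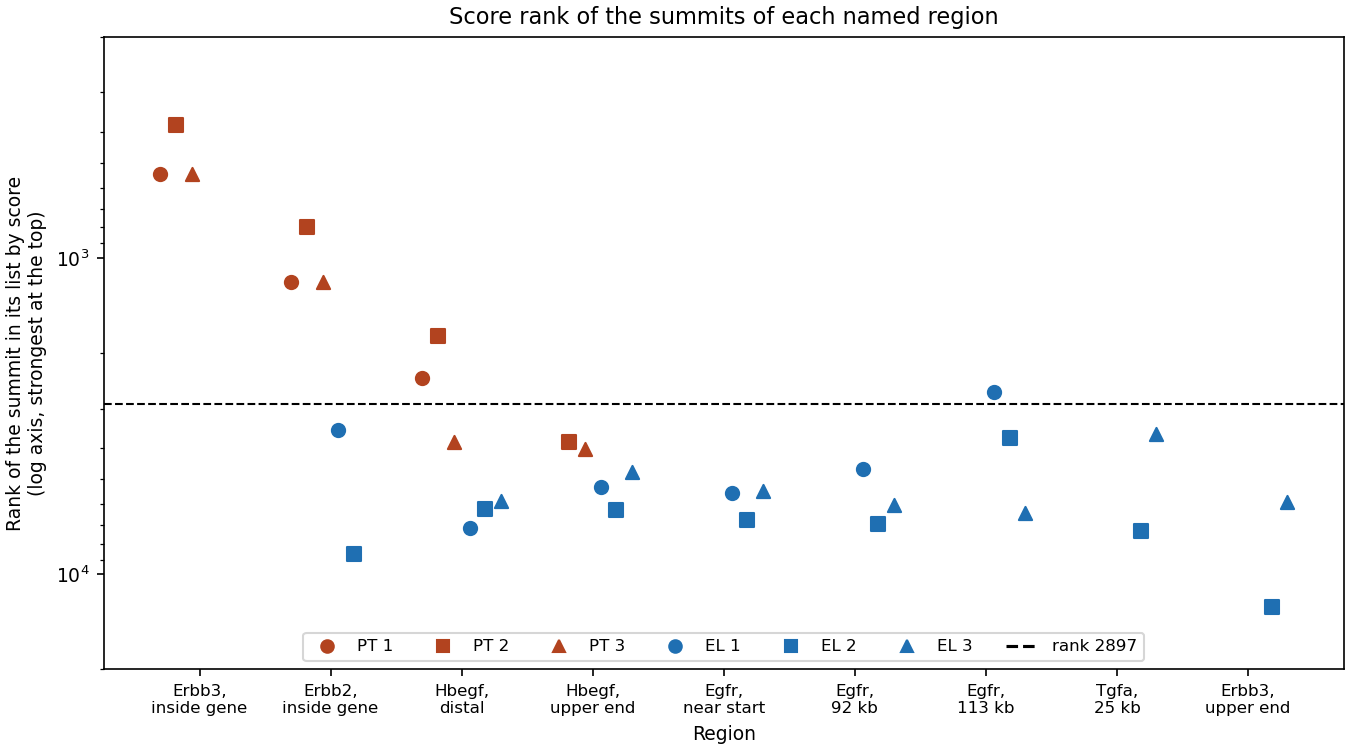
Rank by score of each summit within its own list (log axis, strongest at the top) for the 9 sites found in at least 2 libraries of a group, the 2 neighbouring Hbegf regions drawn as 1 distal site, PT symbols to the left of EL symbols. The dashed line is rank 2897, above which lie the PT summits inside Erbb3 and Erbb2, those of PT replicates 1 and 2 at the distal Hbegf site, and the summit of EL replicate 1 in the third Egfr region.

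Over all 10 genes the full lists held 39 summits, 12 in PT and 27 in EL. Of these, 7 of 12 in PT and 18 of 27 in EL lay inside the gene itself. The summits among the 2897 strongest were 8 of 12 in PT and 1 of 27 in EL. Over all summits the shares were 67.1% in PT and 27.7% in EL, so the PT share is that of the lists as a whole. Of the 16 regions 4 were in all 3 EL and no PT library, 3 at Egfr and the EL part of the distal Hbegf site, and 1937 of all 19317 regions were in this class. A further 5 regions were found in 1 library only.

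The genes most like the receptors over the 6 libraries were taken as those on other chromosomes with the smallest Euclidean distance in the best percentile of the window, with 0 for no summit. For Egfr these were Hoxd1, Arcn1 and Gnpda2, at distances of 6.23, 6.55 and 6.60 percentile points. For Erbb2 they were Reep4, Phgdh and Cxadr, at 12.7, 15.2 and 17.6. For Erbb3 they were BC029722 and Eif6, which had identical values, at 24.2, and Lyg1 at 26.4. The distances of Egfr and Erbb3 cannot be compared directly. Egfr had a percentile of 0 in each PT library, which other genes without a PT summit match exactly. Lyg1 had percentiles of 73.1, 90.3 and 94.0 in PT replicates 1, 2 and 3 and no summit in EL.

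Other genes of the pathway, 27 in a list by role, had a summit in a larger share than the 10 ERBB genes in each of the 6 libraries; this difference was not tested. In the full lists 13, 12 and 17 of the 27 had a summit in PT replicates 1, 2 and 3 and 20, 22 and 17 in EL replicates 1, 2 and 3. Of the 27, 10 had a summit in all 6 libraries, against 13.0% of all protein-coding genes. Among them were Rhbdf1, which encodes a regulator of ligand shedding, Errfi1 and Cbl, which encode an inhibitor and a ubiquitin ligase of ERBB receptors, and the signal relay genes Grb2, Stat3, Src and Pik3r1. The nearest gene was not determined for summits in these 27 windows, so a summit there may lie in or closer to another gene. Rhbdf1 had a best percentile of 99.5, 99.0 and 99.3 in PT and 99.4, 99.6 and 99.7 in EL. More summits in every EL than in any PT library were found at 5 of the 27 genes and 9.26% of all genes, and the reverse at 0 of 27.

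A summit in all 3 EL and at most 1 PT library was found at 5 of the 27 genes, against 9.67% of all protein-coding genes, and one in all 3 PT and at most 1 EL library at 0, against 0.576%. The 5 genes were Adam10 (a sheddase), Lrig1 and Cblb (which lower receptor levels), and Sos1 and Pik3ca of the signal relay. Lrig1 had 0, 0 and 1 summits in PT and 3, 6 and 3 in EL, with a best EL percentile of 34.2 to 81.2. Pik3ca had 0 summits in each PT library and 1 in each EL library, at percentiles of 49.9 to 58.5. In lists of equal length these numbers were 0 of 27 for EL, against 2.87% of all genes, and 1 of 27 for PT, against 2.13%.

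Markers of mammary epithelium gave no check of identity, since binding is not expression: Krt8, Krt18 and Cdh1 had a summit in all 6 libraries and Krt5, Krt14 and Epcam in none. The number of summits per window, added over these 6 genes, was 4 to 11 per PT library and 4 to 6 per EL library, and 4 to 9 against 1 to 3 in lists of equal length. A summit in overlapping windows counts at each gene, which can raise these sums. Krt8 and Krt18 had the same best percentile in PT replicates 1 and 2, 51.1 and 81.4. Leukocyte markers (Ptprc, Cd4, Cd68 and Cd79a) had sums of 3 to 4 per PT library and 4 to 10 per EL library. At equal list length the sums were 3 in each PT library and 1 in each EL library. There Cd4 and Cd79a, 2 of the 4 genes, had a summit in each PT library and none in EL, against 1.42% of all protein-coding genes. Ptprc was at 0 throughout. Cd68 had 1 summit in each of the 6 libraries there, at percentiles of 94.7 to 97.3 in PT and 98.7 to 99.6 in EL. In full lists Cd68 had 1, 1 and 2 summits in PT and 3, 3 and 3 in EL. The sums of both lists at equal length moved in the direction of Erbb2 and Erbb3, and the part of other cell types in their summits was not tested.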

How the data were processed

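ZFP281 summits of 3 PT and 3 EL libraries were used, 1 list per library, and replicates were not pooled here. The labels' protocols give paired reads of 150 bp, and the submitters' processing notes name mm10, Picard and Bowtie2 2.3.4.3. The sources used here do not name the peak caller or say whether it used the inputs. Scores the authors deposited were taken as −log10 q-values, since the lowest score of every list, 1.30 to 1.55, lies at or above the −log10 of 0.05; no label states it. They served to rank the summits of 1 list. Of the summits, 10 on other sequences were left out, and no pair of lists had more than 81 positions in common. Positions are 1-based. Genes came from RefSeq (GRCm38.p6), without strand or exons.

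Counts per gene window, for all 21887 protein-coding genes, were compared by exact permutation of 20 relabellings, two-sided, with Benjamini-Hochberg adjustment over all genes, in Python 3.11.15 with pandas 2.3.3, scipy 1.17.1 and numpy 2.4.6. The steps were tested on simulated data. The members, lists and naming rules were chosen with earlier results of these data known; all 10 genes are described, with regions found in at least 2 libraries of a group. P-values measure the spread between these libraries. Alternatives were equal list lengths, scores of at least 5 and 10, other windows, nearest gene only, merging at 50, 500 and 1000 bp, each library left out and a replicate block. Lists of 1000 and 2000 summits and the test of Hbegf positions were added after seeing the data. Exons and sequence at the summits were not analysed here.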

Additional observations from a re-analysis of the deposited data

How the results depend on the processing

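Depth is unknown, so list length limits every full-list comparison. All differences are PT minus EL. Summits in the windows differed by -5.0 in full lists, and by 2.33, 2.33 and 1.33 in lists of equal length and of the top 2000 and 1000 summits. With scores of at least 5 and 10 they differed by -3.33 and -0.667. Genes with a summit differed by -1.67 in full lists, by 2.33, 2.33 and 1.33 in those lists and by 0.667 with scores of at least 10. The share of the list reversed to -0.00872 percentage points with a 5 kb window and -0.00115 within 1 kb of the gene ends. Genes higher in every PT library numbered 0 in full lists, 2 at equal length and in the top 2000, and 1 in the top 1000, with scores of at least 10 and in gene bodies. Genes higher in every EL library numbered 1 in full lists and 0 at equal length, in the top 2000 and 1000, with scores of at least 10 and within 1 kb of the ends. PT-only regions numbered 2 in full lists, 1 with scores of at least 10, in gene bodies, with a 5 kb window, merged at 500 or 1000 bp and in the top 1000, and 0 within 1 kb of the ends or merged at 50 bp. EL-only regions numbered 4 in full lists, 2 merged at 50 bp, 1 with scores of at least 5, and 0 at equal length, in the top 2000 and 1000, with scores of at least 10 and within 1 kb of the ends.

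Single genes reversed at Erbb3, from 0.333 in full lists to -1.33 with a 50 kb window and -0.333 within 1 kb of the ends, and at Hbegf, from -0.333 to 0.667 at equal length, 0.333 in gene bodies and 0.333 in the top 2000. The cause was not tested. With each library left out, the difference ranged from -6.50 to -2.50 for summits (-2.50 without EL replicate 2), from -2.50 to -0.500 for genes with a summit (-0.500 without EL replicate 2) and from 0.00123 to 0.0159 percentage points for the share. Genes higher in EL ranged from 1 to 2 (2 without EL replicate 1, where Tgfa joins), genes higher in PT from 0 to 0, EL-only regions from 4 to 6 and PT-only regions from 2 to 2. Leaving a library out loosens the rules for these genes and regions. Their numbers could therefore hardly fall, and the ranges do not show stability. Of 123 such comparisons of the main results, 88 kept their direction or, for numbers of genes and regions, stayed within 1.5 times. The 88 include comparisons that could hardly come out otherwise, such as numbers with a library left out and differences with a replicate block. They are therefore no measure of stability. Deviations of same-numbered libraries from their group means had correlations of 0.0930, -0.0612 and -0.254 over all genes. Libraries of unlike number reached 0.281 (PT replicate 1 with EL replicate 3). The counts carry list length, so these values cannot decide whether the numbers pair libraries. With a replicate block the summits differed by -5.0 (exact sign-flip permutation p = 0.25, the smallest possible). The genes with a summit then differed by -1.67 (exact sign-flip permutation p = 0.5) and the share by 0.00928 percentage points (exact sign-flip permutation p = 0.75). A block leaves such differences the same by construction, and a gene called without overlap stays called. Calls could only be added, and none was.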

Other observations

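Of 5 further ligand genes outside the 10, Egf and Nrg4 had no summit in any library, and Epgn had 1 summit, in PT replicate 3. Nrg3, a neuregulin gene, had no summit in PT and 1 each in EL replicates 1 and 2, at percentiles 9.31 and 49.9. Nrg2, which encodes a neuregulin that binds ERBB3 and ERBB4, had 1, 1 and 2 summits in PT replicates 1, 2 and 3 and 1, 1 and 0 in EL replicates 1, 2 and 3. Its best percentiles were 59.0, 61.1 and 66.1 in PT and 5.59 and 2.96 in EL replicates 1 and 2. In lists of equal length it had 1 summit in each PT library and 0 in each EL library, a pattern of 1.42% of all protein-coding genes, and was the 1 gene of the 27 pathway genes to show it. Nrg2 was singled out after its values were seen.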
